A study of Homo sapiens with 8 samples.

Results

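The genes described here encode 47 nucleolar factors that build ribosomes, out of 20453 gene IDs counted in the series. They were taken as a list of gene symbols chosen with earlier results of these data known, so their called shares are no independent test. Of them, 17 act in small subunit assembly, 14 in large subunit assembly, and 9 are proteins of small nucleolar ribonucleoproteins (snoRNPs). A further 4 belong to the RNA polymerase I machinery, and NCL, NPM1 and MYBBP1A are abundant nucleolar proteins. All 47 were found in every library and passed the filter on low counts in every comparison. Cells transduced with a DNMT3A mutant (genotype label mut) were set against cells transduced with wild-type DNMT3A (label wt). DNMT3A is a de novo DNA methyltransferase, and both groups carry an introduced copy of it beside their own gene. The cells were labelled THP-1, a line established from acute monocytic leukaemia, and each genotype has 2 RNA-seq libraries and 2 ribosome profiling libraries, which count the mRNA fragments that ribosomes protect (footprints). Nothing in the labels ties the replicates to cultures of their own; the p-values rest on library-to-library spread, and that may be technical.

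Ribosomes are assembled in the nucleolus around ribosomal RNA that RNA polymerase I transcribes as one long precursor. Guide RNAs in snoRNPs direct its methylation (box C/D particles) and pseudouridylation (box H/ACA particles), a large processome folds and cuts it for the small subunit, and a separate series of factors assembles the large subunit. Many of these genes are targets of MYC, and their output is tied to growth; NPM1 is itself often mutated in acute myeloid leukaemia.

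Total counts were 4393445 and 3901659 in the mutant mRNA libraries and 3415999 and 4523475 in the wild-type ones, against 944824 and 603360 in mutant footprints and 1611724 and 1988513 in wild-type footprints. The 47 genes took 0.695% and 0.686% of counts in mutant mRNA and 0.669% in each wild-type mRNA library. Their share of footprints was 0.629% and 0.613% in mutant and 0.646% and 0.634% in wild-type libraries. DNMT3A mRNA stood at 240.5 and 244 CPM (counts scaled to 1000000 reads a library, with TMM factors within each assay) in mutant libraries, against 291 and 294 CPM in wild-type libraries; these counts mix the endogenous gene with the introduced copy. The 2 footprint libraries of each genotype differed by no more than counting noise: chi-square per degree of freedom was 0.925 in mutant and 1.01 in wild-type footprints, against 1.33 and 1.08 in the mRNA libraries. They were kept as 2 libraries as labelled, and fits with a coefficient of variation of 10% assumed, and with the footprint libraries summed as well, are given where they change a result. A summed group has no spread of its own, so the summed fit always used the assumed 10%. Marker genes went against the label of the line. Of 10 monocyte markers, 3 (LYZ, CD68 and SPI1) reached 10 CPM in every library, and S100A8, S100A9 and MPO were at 0 in all 8. All 10 erythroid markers, GATA1, KLF1 and the gamma globins among them, reached 10 CPM in all 8 libraries. In mRNA their summed level was 1711 and 1772 CPM in mutant and 2099 and 2137 CPM in wild-type libraries, and that of the monocyte markers 86.4 and 93.9 CPM in mutant and 92.1 and 99.8 CPM in wild-type libraries. Footprints of the erythroid markers summed to 1916 and 1970 CPM in mutant and 2204 and 2239 CPM in wild-type libraries. Single erythroid markers went both ways in footprints: 3 were called higher, HBG1 and HBG2 among them, and 4 lower (HBZ, GATA1, KLF1 and GFI1B). Their part in the results below was not tested, and in bulk samples a change in the mix of cells cannot be told apart from a change within cells.

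For NIFK and WDR43, mRNA and footprints moved in opposite directions. NIFK encodes a nucleolar protein that binds the proliferation antigen Ki-67 and acts in large subunit rRNA processing; WDR43 is part of the complex that first binds the rRNA precursor in small subunit assembly. Their promoters are shown because both mRNAs rose while their footprints fell. Each is the 250 bases before the RefSeq start, 5′ to 3′ on the gene's strand, for NIFK the minus strand of GRCh38.p14 chr2:121736876-121737125 and for WDR43 the plus strand of chr2:28894417-28894666. Capitals mark GGGCGG or its reverse complement CCGCCC, the GC box.
NIFK: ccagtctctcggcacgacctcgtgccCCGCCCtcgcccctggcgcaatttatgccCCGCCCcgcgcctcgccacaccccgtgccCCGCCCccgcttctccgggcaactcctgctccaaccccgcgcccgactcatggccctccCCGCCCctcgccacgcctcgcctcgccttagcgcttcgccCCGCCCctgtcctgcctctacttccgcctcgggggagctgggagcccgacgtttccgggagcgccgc
WDR43: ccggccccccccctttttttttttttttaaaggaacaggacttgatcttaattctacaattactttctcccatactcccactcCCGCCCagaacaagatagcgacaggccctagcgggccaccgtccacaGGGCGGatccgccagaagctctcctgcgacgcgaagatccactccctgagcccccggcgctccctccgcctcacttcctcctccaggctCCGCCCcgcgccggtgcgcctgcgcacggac
The NIFK stretch holds 5 GC boxes and the WDR43 stretch 3. On either strand, neither holds the E-box CACGTG that MYC binds, the core CCGGAAG bound by ETS factors, or the TATA box, searched as TATAAA.

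NIFK (ENSG00000155438, GRCh38 chromosome 2, 121726945 to 121736875) stood at 75.4 and 69.7 CPM in mutant mRNA, against 56.4 and 56.8 CPM in wild-type mRNA. Its footprints were 87.2 and 91.2 CPM in mutant libraries, against 161 and 182 CPM in wild-type libraries. Both mutant mRNA values lay above both wild-type values, and both mutant footprint values lay far below. The mRNA was 1.28-fold of wild type (log2 fold change 0.36, SE 0.095, edgeR adjusted p = 9.13e-04) and the footprints 0.515-fold (log2 -0.96, SE 0.12, edgeR adjusted p = 7.84e-10). Footprints per mRNA were 1.20 and 1.26 in the mutant libraries, each divided by the mean mRNA level of its genotype, against 2.85 and 3.21 in the wild-type libraries. That is a log2 fold change of -1.32 (95% interval -1.63 to -1.01, edgeR interaction adjusted p = 1.15e-09), the largest fall among the 47. Among all 9166 genes tested, NIFK was at percentile 64 of footprints per mRNA in mutant cells, against 98.6 in wild-type cells. The footprint fall passed in all 13 alternative fits, with log2 fold changes between -1.11 and -0.86 and a highest adjusted p of 0.0294. The interaction passed in all of the 18 alternatives but DESeq2, at an adjusted p of at most 0.0263; DESeq2 gave it no adjusted p and an unadjusted p of 8.69e-08. The mRNA rise did not pass with 10% variation assumed (adjusted p = 0.193), by DESeq2 (0.092) or once the trend with gene density was removed (log2 0.19, adjusted p = 0.136). NIFK has 8 named pseudogenes, whose reads the counting could share.

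WDR43 (ENSG00000163811, chromosome 2, 28894667 to 28948219) stood at 142 and 131 CPM in mutant mRNA and 115 CPM in each wild-type mRNA library. Footprints were 155 and 156 CPM in mutant libraries and 219 and 190.5 CPM in wild-type libraries. Neither assay's groups overlapped. The mRNA log2 fold change was 0.25 (SE 0.071, edgeR adjusted p = 0.00189), that of footprints -0.39 (SE 0.1, adjusted p = 0.00363) and that of footprints per mRNA -0.64 (95% interval -0.90 to -0.39, adjusted p = 3.17e-04). The interaction was lost in 2 of 18 alternatives, those with 10% variation assumed, without (edgeR adjusted p = 0.566) or with summing of the footprint libraries. The footprint fall alone was lost in 6 of 13 alternatives and the mRNA rise in 4 of 12; without mutant mRNA replicate 1 the mRNA adjusted p was 0.0818. WDR43 holds 3 snoRNA genes in its span, and the feature that was counted is not given in the sources used here.

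**Figure D1:**
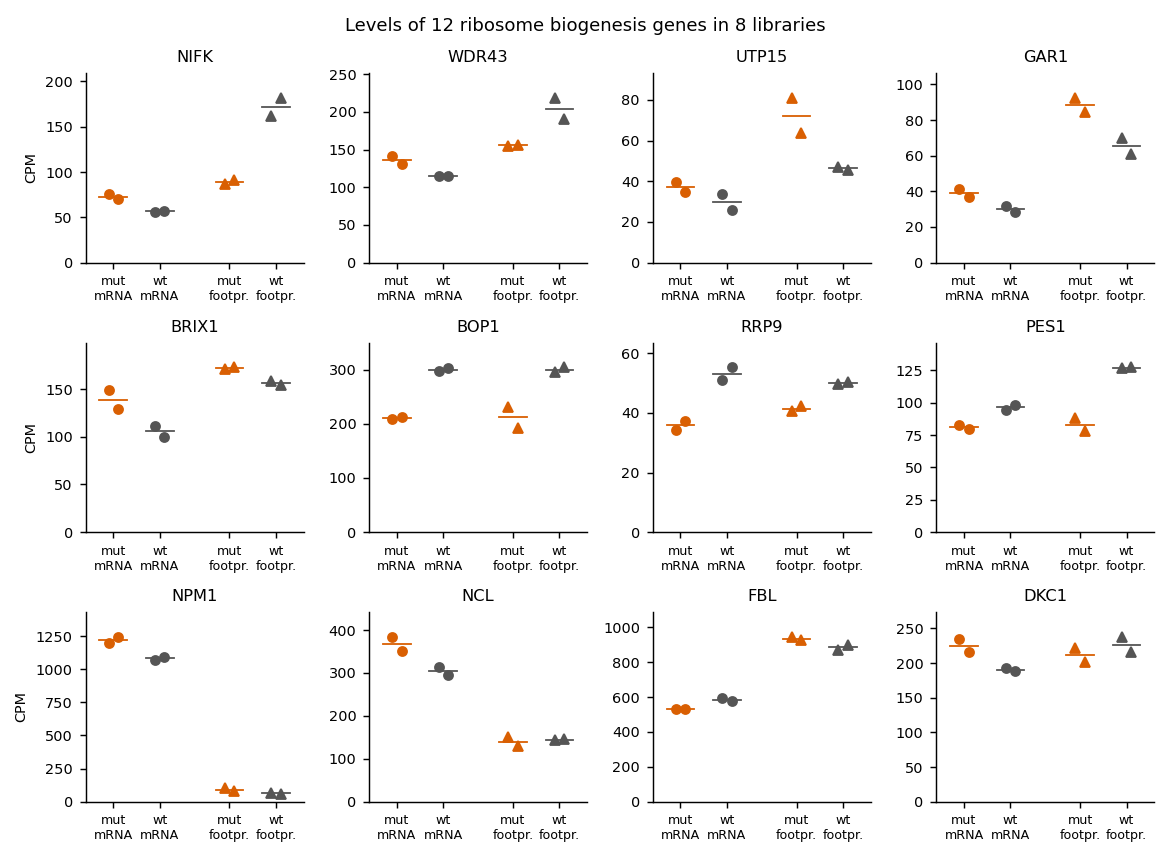
Levels in CPM (y axis, from 0) of 12 genes in mutant (orange) and wild-type (grey) libraries, with mRNA as circles, footprints as triangles and each line the mean of 2 libraries. NIFK and WDR43 stand higher in mutant mRNA and lower in mutant footprints, while BOP1 and PES1 stand lower and GAR1 and UTP15 higher in both.

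In mRNA the 47 genes split. By edgeR's quasi-likelihood test, 15 rose and 7 fell at an adjusted p under 0.05 and 25 did not pass, a called share of 46.8%, against 37.7% of the 10756 genes tested (18.9% higher and 18.9% lower). Their median log2 fold change was 0.03, with a range of -0.58 to 0.41, and the median of all genes was -0.002. In 18 genes both mutant values lay above both wild-type values, in 16 below, and in 13 they overlapped; groups did not overlap for 67.9% of all genes. With 10% variation assumed between cultures only BOP1 passed among the 47 (2.91% of all genes did), while DESeq2 called 4 higher and 4 lower (19.2% of all genes it tested). Leaving out replicate 2 of wild-type mRNA, or replicate 1 of mutant mRNA, left 14 of the 47 in each case, and 21% and 24.5% of all genes.

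The falls were led by factors of both subunits. RRP9, a protein of the U3 snoRNP that starts small subunit processing, stood at 34.4 and 37.4 CPM in mutant mRNA, against 51.1 and 55.3 CPM in wild-type mRNA (log2 -0.58, SE 0.11, edgeR adjusted p = 5.64e-06). RRP12, which acts in nuclear export of pre-ribosomes, stood at 49.8 and 52.4 CPM in mutant mRNA and 70.5 and 75 CPM in wild-type mRNA (log2 -0.52, SE 0.098, adjusted p = 1.89e-06). BOP1, a scaffold of the PeBoW complex of large subunit assembly, stood at 208 and 213 CPM in mutant mRNA and 298 and 302 CPM in wild-type mRNA (log2 -0.51, SE 0.054, adjusted p = 1.36e-18). In these genes the groups lay well apart; the BOP1 fall passed in all 12 alternatives, at log2 -0.52 to -0.28, and those of RRP9 and RRP12 in all but the one with 10% variation assumed (adjusted p = 0.052 and 0.0628). MYBBP1A, a nucleolar protein that binds the transcription factor MYB, stood at 87.3 and 96.7 CPM in mutant mRNA and 128 and 129.6 CPM in wild-type mRNA (log2 -0.49, SE 0.075, edgeR adjusted p = 3.24e-09). NOL6, a small subunit processome component, stood at 52.8 and 58.3 CPM in mutant mRNA and 70 and 67.8 CPM in wild-type mRNA (log2 -0.31, SE 0.097, adjusted p = 0.00547). PES1, a PeBoW partner of BOP1, and FBL also fell, by 0.25 and 0.14 on the log2 scale. WDR12, the other member of that complex, rose instead, with a log2 fold change of 0.22 (edgeR adjusted p = 0.0463) that 7 of 12 alternatives did not keep past the threshold.

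The rises were led by BRIX1, a large subunit assembly factor, at 149 and 129 CPM in mutant mRNA and 111 and 100.04 CPM in wild-type mRNA (log2 0.41, SE 0.072, edgeR adjusted p = 2.46e-07). GAR1, a core protein of H/ACA snoRNPs, stood at 41.1 and 36.7 CPM in mutant mRNA and 31.6 and 28.2 CPM in wild-type mRNA (log2 0.39, SE 0.13, adjusted p = 0.00877). UTP15, in the same early small subunit complex as WDR43, stood at 39.7 and 34.6 CPM in mutant mRNA and 33.9 and 26 CPM in wild-type mRNA (log2 0.34, SE 0.13, adjusted p = 0.0271). The mutant values lay above the wild-type ones in each of these genes, though for UTP15 the gap was narrow. LTV1, a late small subunit factor, had 35 and 33.1 CPM in mutant mRNA and 26.6 and 27.5 CPM in wild-type mRNA (log2 0.33, SE 0.14, adjusted p = 0.0422). Calls for GAR1, UTP15 and LTV1 were lost in 5, 6 and 8 of 12 alternatives, without wild-type mRNA replicate 2 and without mutant mRNA replicate 1 in each case. The BRIX1 call was lost only with 10% variation assumed (edgeR adjusted p = 0.121). The other rises were NOL11 and WDR75 of the same early complex, GNL3 (nucleostemin, a nucleolar GTPase), NMD3 (the adaptor that takes large subunits out of the nucleus) and NOP58, at log2 0.25 to 0.31. The mutant and wild-type values of WDR75 and of WDR12 overlapped, and the WDR75 call was lost in 7 of 12 alternatives, with log2 fold changes of -0.01 without mutant mRNA replicate 1 and 0.50 without mutant mRNA replicate 2.

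NCL, NPM1 and DKC1 rose in mRNA, to 1.21, 1.13 and 1.19 times the wild-type level. NCL (nucleolin, an RNA-binding protein of the nucleolus) stood at 384 and 352 CPM in mutant mRNA, against 313 and 296 CPM in wild-type mRNA (log2 0.28, SE 0.05, edgeR adjusted p = 3.60e-07). NPM1 (nucleophosmin, a histone and ribosome chaperone) stood at 1195 and 1243 CPM in mutant mRNA and 1069.9 and 1095 CPM in wild-type mRNA (log2 0.17, SE 0.037, adjusted p = 4.56e-05). DKC1, the pseudouridine synthase of H/ACA snoRNPs, stood at 234 and 215 CPM in mutant mRNA and 192 and 188 CPM in wild-type mRNA (log2 0.25, SE 0.058, adjusted p = 1.87e-04). The groups did not overlap in any of them. FBL, fibrillarin, the methyltransferase of box C/D snoRNPs, went the other way, at 530.1 and 529.95 CPM in mutant mRNA and 593 and 576 CPM in wild-type mRNA (log2 -0.14, SE 0.043, adjusted p = 0.0048). The FBL sign turned once the density trend was removed (log2 0.02, adjusted p = 0.818), and the NPM1 value was then 0.001.

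In footprints the balance lay on the other side: 3 genes rose, 13 fell and 31 did not pass, a called share of 34% against 21.2% of 9181 genes tested (10.2% higher and 11% lower). The median log2 fold change of the 47 was -0.13, with a range of -0.96 to 0.68, and that of all genes 0.005. Both mutant values lay above both wild-type values in 13 genes and below them in 21; groups did not overlap for 58.8% of all genes. Scaling by library totals alone, in place of TMM, gave 6 higher and 10 lower among the 47, with NOP53, UTP18 and EBNA1BP2 no longer called, and 22.5% of all genes, 1255 higher and 812 lower over all genes, against 940 and 1006 with TMM. With 10% variation assumed, NIFK was the only call among the 47 (3.13% of all genes passed), and so it was with the footprint libraries summed as well (0.427%). Without mutant footprint replicate 1, replicate 2 or wild-type footprint replicate 2 the 16 calls became 4, 8 and 9, against 3.05%, 9.76% and 12.8% of all genes.

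After NIFK, the largest falls were in UTP3 and RRP1. UTP3, a small subunit processome factor, had footprints of 35.3 and 19.6 CPM in mutant libraries, against 52.9 and 46.2 CPM in wild-type libraries (log2 -0.75, SE 0.22, edgeR adjusted p = 0.00711). RRP1, which acts in large subunit rRNA processing, had 49.9 and 57 CPM in mutant libraries and 77.5 and 95 CPM in wild-type libraries (log2 -0.73, SE 0.17, adjusted p = 4.73e-04). The groups lay apart in each, but the mutant UTP3 values rest on 34 and 12 reads and differ widely from each other, and the UTP3 call was lost without mutant footprint replicate 2 (log2 -0.48) and stood at -1.33 without replicate 1. UTP18, of another early small subunit complex, had 20.8 and 21.2 CPM in mutant and 35.9 and 31.8 CPM in wild-type footprints (log2 -0.68, SE 0.25, edgeR adjusted p = 0.0419). RRN3, the initiation factor that brings RNA polymerase I to its promoter, had 26 and 31 CPM in mutant and 42.8 and 44.7 CPM in wild-type footprints (log2 -0.65, SE 0.22, adjusted p = 0.025). Both were below wild type in both mutant libraries, at 13 to 25 reads each, and their calls were lost in 9 and 5 of 13 alternatives. NOLC1, a snoRNP chaperone known as Nopp140, had 152 and 142 CPM in mutant and 212 and 207 CPM in wild-type footprints, groups far apart (log2 -0.50, SE 0.1, edgeR adjusted p = 1.12e-04). BOP1, PES1 and MYBBP1A fell in footprints as in mRNA, by 0.48, 0.59 and 0.49 on the log2 scale. NHP2, NOP53 and EBNA1BP2 also fell, by 0.46, 0.39 and 0.20; the calls were lost in 4, 8 and 9 of 13 alternatives, that of EBNA1BP2 with any 1 library left out.

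UTP15, NPM1 and GAR1 were the 3 whose footprints rose, and each rose in mRNA too. UTP15 had 81 and 63.5 CPM in mutant footprints, against 47.3 and 45.7 CPM in wild-type footprints (log2 0.68, SE 0.17, edgeR adjusted p = 0.00161). NPM1 had 104 and 79.8 CPM in mutant footprints and 68.7 and 61.6 CPM in wild-type footprints (log2 0.54, SE 0.15, adjusted p = 0.00442). GAR1 had 92.4 and 84.7 CPM in mutant footprints and 69.9 and 61.1 CPM in wild-type footprints (log2 0.46, SE 0.15, adjusted p = 0.0192). The mutant values were the higher ones in each gene. All 3 calls were lost without mutant footprint replicate 1, where the log2 fold change of NPM1 was 0.30 and that of UTP15 0.45. For NPM1, 49 named pseudogenes make the assignment of short footprints uncertain. NCL footprints were 149.6 and 129 CPM in mutant and 144 and 145 CPM in wild-type libraries, with overlapping groups and a log2 fold change of -0.04 (edgeR adjusted p = 0.867), positive when scaled by library totals alone. DKC1 footprints were 221 and 202 CPM in mutant and 238 and 216 CPM in wild-type libraries, which overlapped (log2 -0.08, adjusted p = 0.602, and positive once the density trend was removed), and FBL footprints 945 and 925 CPM in mutant and 873 and 898 CPM in wild-type libraries, which did not (log2 0.08, adjusted p = 0.298).

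Of the 15 genes whose mRNA rose, footprints rose in 3, fell in 2 and did not pass in 10. Of the 7 whose mRNA fell, footprints fell in 3 and did not pass in 4 (FBL, NOL6, RRP9 and RRP12). Footprints alone fell in 8 genes, and 17 passed in neither assay. Over all genes tested, 37.7% were called in mRNA and 21.2% in footprints. Their calls were not crossed between the assays, so these counts have no background to be set against. A gene past the threshold in one assay and not in the other is not thereby shown to differ between them, and the interaction below is the test of that difference.

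**Figure D2:**
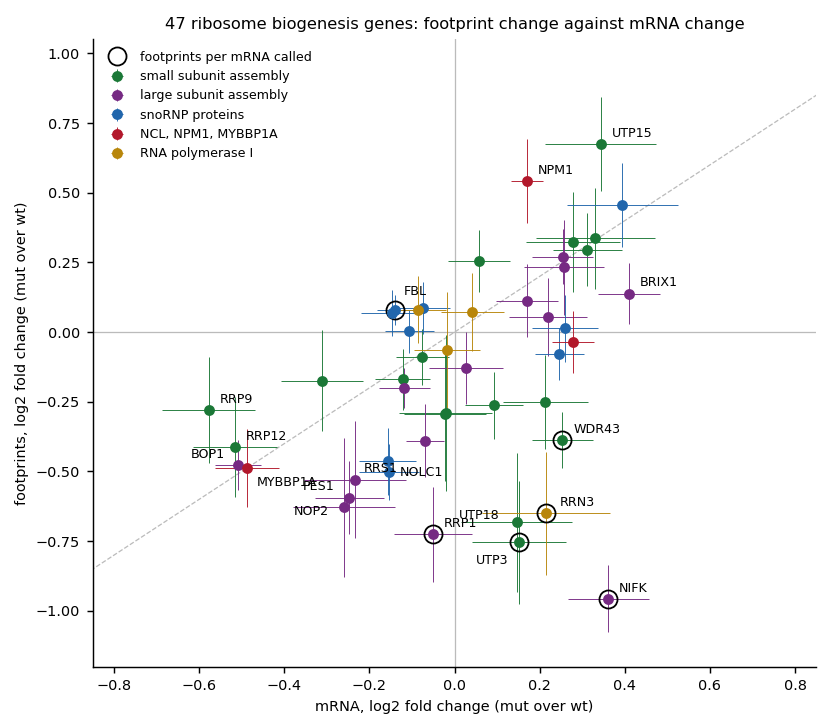
Log2 fold change, mutant over wild type, of footprints (y axis) against mRNA (x axis) for the 47 genes, with bars of 1 SE, colours by role, black rings for the 6 genes called in footprints per mRNA and a dashed line where both changes are equal. NIFK, at 0.36 in mRNA and -0.96 in footprints, lies farthest from the line.

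Footprints per mRNA changed in 6 of the 47 genes, 1 higher and 5 lower, a share of 12.8% against 4.15% of 9166 genes tested (1.78% higher and 2.37% lower). The median log2 fold change was -0.06, against 0.004 for all genes. The falls besides NIFK and WDR43 were in UTP3, RRN3 and RRP1. UTP3 had ratios of footprints to mRNA of 0.702 and 0.389 in mutant libraries, against 1.16 and 1.02 in wild-type libraries (log2 -0.91, SE 0.25, edgeR interaction adjusted p = 0.0204). RRN3 had 0.95 and 1.13 in mutant and 1.81 and 1.89 in wild-type libraries (log2 -0.86, SE 0.27, adjusted p = 0.0463), and RRP1 had 0.725 and 0.83 in mutant and 1.09 and 1.34 in wild-type libraries (log2 -0.68, SE 0.19, adjusted p = 0.0253). Each gene's mutant ratios lay below both wild-type ratios. The calls of UTP3, RRP1 and RRN3 were lost in 5, 6 and 10 of 18 alternatives, and RRN3 overlaps PDXDC1 and has 4 named pseudogenes. FBL was the 1 rise, at 1.78 and 1.75 in mutant and 1.49 and 1.54 in wild-type libraries (log2 0.22, SE 0.067, edgeR adjusted p = 0.0419), and 13 of 18 alternatives did not keep it. Without mutant footprint replicate 1 there were 3 calls among the 47 and 1.43% of all genes, and without replicate 2 there were 2 calls and 2.37%. Leaving out wild-type footprint replicate 1 or 2 left 3 and 4 (3.94% and 2.94% of all genes), and leaving out replicate 2 of wild-type or replicate 1 of mutant mRNA left 2 and 4 (2.86% and 3.46%). The UTP3 value was -1.48 without mutant footprint replicate 1. Only NIFK passed with 10% variation assumed (0.142% of all genes passed), and with footprints summed as well (0.04%).

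Large subunit factors had the lowest median in footprints per mRNA, -0.22, with 12 of 14 negative, 2 lower (NIFK and RRP1) and 12 not past the threshold. Their footprint median was -0.30, with 0 higher, 6 lower and 8 not passing, while their mRNA had a median of -0.01 with 5 higher and 2 lower. Over all genes 10.2% were higher and 11% lower in footprints, and 18.9% each in mRNA. In footprints per mRNA 1.78% of all genes were higher and 2.37% lower. The 39 large subunit genes tested in footprints from a wider list of assembly genes had a footprint median of -0.08, with 1 higher and 4 lower. Their median in footprints per mRNA was -0.08, with 25 of 39 negative, 1 higher and 2 lower. Small subunit factors had 5 higher and 3 lower in mRNA (median 0.09), 1 higher and 3 lower in footprints (median -0.25) and 2 lower of 17 in footprints per mRNA (median -0.02). For the 9 snoRNP proteins the mRNA median was -0.11, the footprint median 0.01 and that of footprints per mRNA 0.06, with 3 higher and 1 lower in mRNA, 1 higher and 2 lower in footprints and FBL alone called in the ratio. Both kinds of particle held members of either direction. Among the H/ACA proteins, DKC1 and GAR1 rose in mRNA, while NHP2 (adjusted p = 0.0503) and NOP10 (0.106) were at log2 -0.16 and -0.15. Among the box C/D proteins, NOP58 rose at log2 0.26, FBL fell, and NOP56 and SNU13 were at -0.07 and -0.11 without passing. The polymerase subunits POLR1A and POLR1B and the promoter factor UBTF did not pass in any comparison, at log2 -0.09 to 0.17, and RRN3 was the only one of that group called. Whether the roles differ from each other was not tested.

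**Figure D3:**
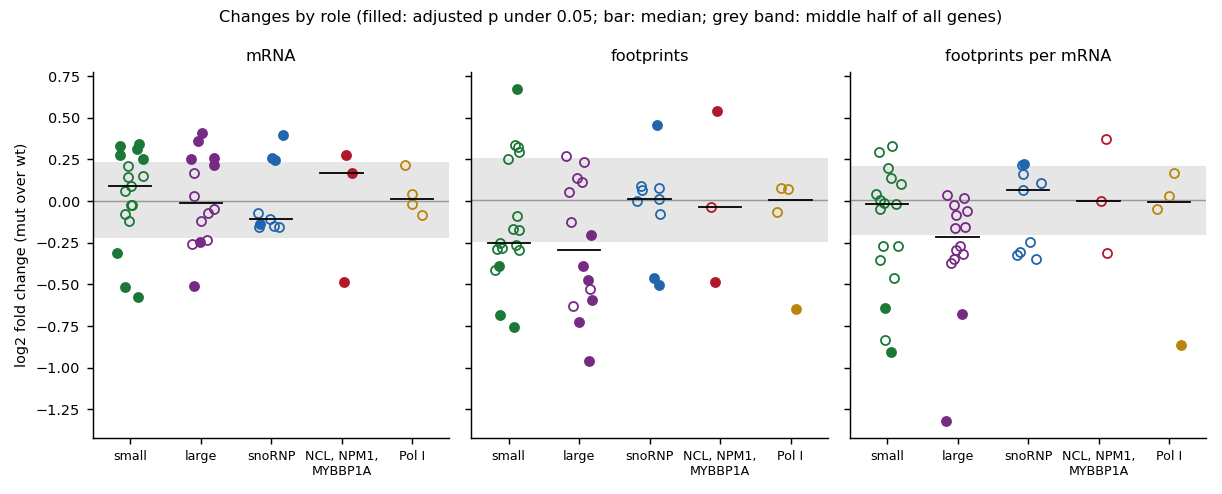
Log2 fold change, mutant over wild type (y axis), of the 47 genes by role in mRNA, footprints and footprints per mRNA; filled points had an adjusted p under 0.05, black bars are medians and the grey band is the interquartile range of all genes. Large subunit factors had medians of -0.01, -0.30 and -0.22.

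Within each genotype the 47 genes spanned a wide range of footprints per mRNA. Relative to all genes, NPM1 was lowest at log2 -3.69 in mutant and -4.06 in wild-type cells, percentiles 0.185 and 0.142. NOP53, which recruits the nuclear exosome to pre-ribosomes, was next at -2.34 in mutant and -2.02 in wild-type cells, NCL stood at -1.38 in mutant and -1.07 in wild-type cells, and UBTF at -1.17 in mutant and -1.13 in wild-type cells. At the top, NOP10, the smallest H/ACA core protein, stood at 1.44 in mutant and 1.23 in wild-type cells, GAR1 at 1.20 in mutant and 1.13 in wild-type cells, and EBNA1BP2, a large subunit factor, at 1.03 in mutant and 1.12 in wild-type cells. NIFK led in wild-type cells at 1.61 and stood at 0.29 in mutant cells. The snoRNP proteins had medians of 0.46 in mutant and 0.56 in wild-type cells, with 6 and 8 of 9 called higher (30.3% and 36.2% of all genes were). Scaling within each assay sets the level these calls are measured from. A call is therefore relative to all genes, and does not set footprints against the gene's own mRNA in absolute terms. NHP2 was called lower in mutant cells (log2 -0.40, edgeR adjusted p = 0.00221) and stood at -0.09 in wild-type cells. DKC1, at -0.08, and NOP58, at 0.12, were not called in mutant cells. The snoRNP proteins were not tested as a group. Called lower in footprints per mRNA were 12 of the 47 in mutant and 11 in wild-type cells, against 29% and 34.1% of all genes. Called in either direction were 55.3% and 70.2% of the 47, against 59.4% and 70.3% of all genes. Ribosomal protein genes lay at the other end, with medians of -1.22 in mutant and -0.94 in wild-type cells over 71 genes. Many of them have processed pseudogenes, and whether reads shared with these were counted or left out is not given. Their low values can therefore not be read as low translation. Reads of pseudogenes (13 of the 47 genes have named ones) and of snoRNA genes (9 of the 47 hold 26 of them) can enter these ratios, and their part was not tested.

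**Figure D4:**
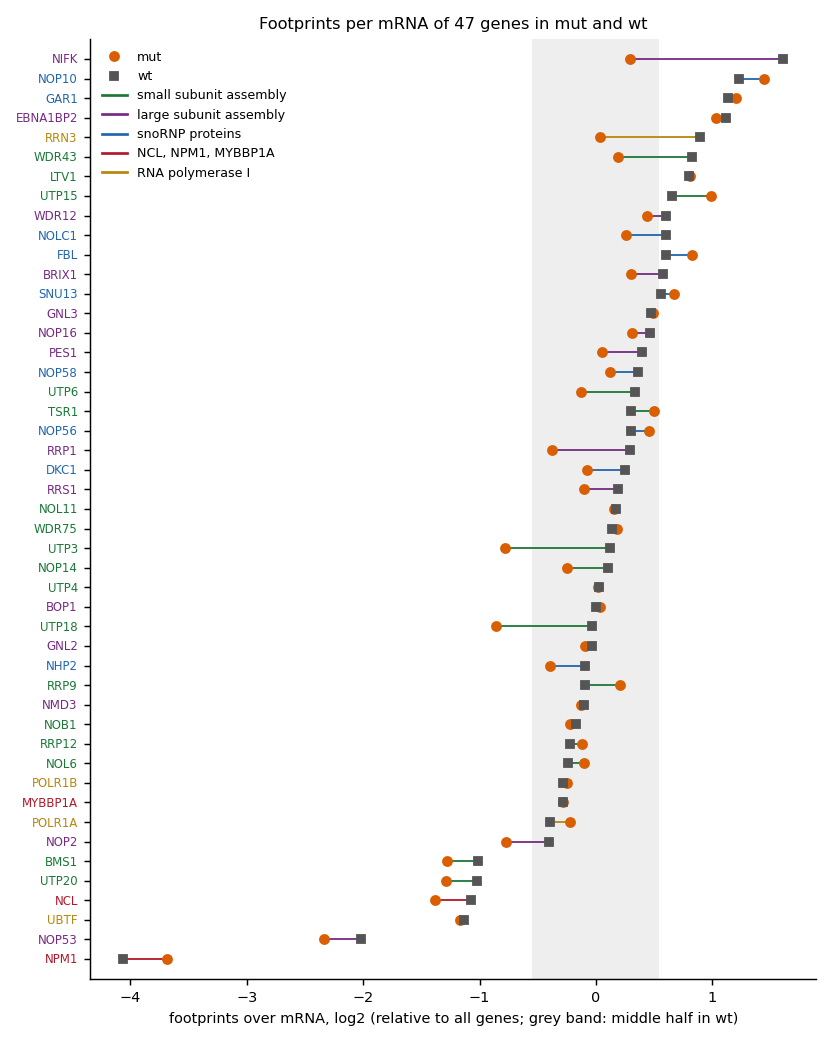
Footprints over mRNA on a log2 scale relative to all genes (x axis) for each of the 47 genes (y axis, ordered by the wild-type value), with mutant cells as orange circles and wild-type cells as grey squares; the grey band is the interquartile range of all genes in wild-type cells. NIFK moved farthest, to 0.29 in mutant against 1.61 in wild-type cells, and NPM1 lay lowest in both.

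The mRNA changes varied with the gene density around each gene. Across the 47 genes, Spearman's rho between mRNA log2 fold change and the number of protein-coding genes within 500000 bases on either side was -0.62, a description over genes that share the same 4 libraries; over 10624 genes it was -0.43. Counted with the gene itself, genes whose mRNA rose had a median of 8 genes in this window (4 to 33), those that fell 29 (14 to 45) and the others 16. The rho was -0.23 for footprints and 0.15 for footprints per mRNA. With the trend over all genes removed, 5 of the 47 were higher (NCL, DKC1, BRIX1, GNL2 and GNL3) and 6 lower (BOP1, NOL6, RRP9, RRP12, MYBBP1A and NHP2) in mRNA, 9 of them among the 22 called before, against 27.2% of all genes. DKC1, with 33 genes in its window, then had a log2 fold change of 0.43 in place of 0.25. In footprints 11 of the 16 calls stood in the same direction after removal (16.9% of all genes passed), and in footprints per mRNA 5 of 6 (3.99%), with FBL lost and DKC1 lower.

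**Figure D5:**
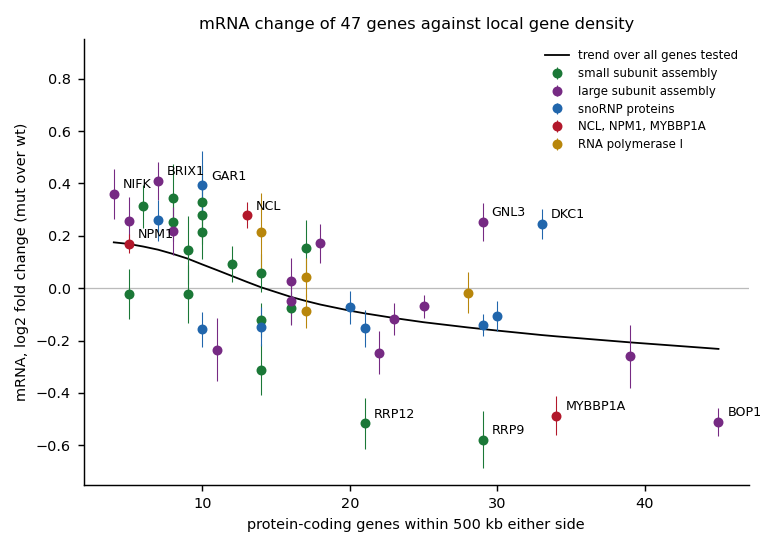
mRNA log2 fold change, mutant over wild type (y axis, bars of 1 SE), against the number of protein-coding genes within 500000 bases on either side (x axis) for the 47 genes, with the trend over all genes tested as a line. DKC1, GNL3 and NCL lie above the line, and BOP1, RRP9, RRP12 and MYBBP1A below it.

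A wider list of 102 other ribosome biogenesis genes had 28 higher, 23 lower and 51 not passing in mRNA (50% called, against 37.7% of all genes) and a median log2 fold change of 0.08. In footprints 6 of its 99 tested genes were higher and 10 lower (16.2% called, against 21.2% of all genes; median -0.08), and in footprints per mRNA 2 were higher and 4 lower (6.06%, against 4.15%; median -0.08). PIH1D1, of the co-chaperone complex that assembles snoRNPs, had footprints of 94.5 and 86.3 CPM in mutant and 189.6 and 174 CPM in wild-type libraries, groups far apart (log2 -0.99, edgeR adjusted p = 1.12e-10). Its mRNA fell less, by 0.29, and footprints per mRNA changed by log2 -0.70 (adjusted p = 3.17e-04). EIF6, which keeps the large subunit from joining too early, had footprints of 204 and 174 CPM in mutant and 310.0 and 303 CPM in wild-type libraries (log2 -0.67, edgeR adjusted p = 3.41e-09), and its ratio fell by 0.47 (adjusted p = 0.0118). PNO1, a late small subunit factor, rose in mRNA at log2 0.37 and fell in the ratio by 0.69 (adjusted p = 0.0161). TAF1D, part of the RNA polymerase I selectivity factor, rose in mRNA (log2 0.47, edgeR adjusted p = 1.78e-07) and in footprints (0.70, adjusted p = 3.87e-04), and TAF1A of the same factor rose in footprints (0.99) but not past the threshold in mRNA (0.46, adjusted p = 0.057). RUVBL2, TBL3 and NOC2L fell in mRNA by 0.36, 0.51 and 0.37, and NOL8 and RSL24D1 rose at 0.51 and 0.34. PWP1 rose in footprints at 0.47. NUFIP1 and URB2 rose in the ratio at 1.02 and 0.50 (edgeR interaction adjusted p = 0.0384 and 0.0412). Neither passed in footprints alone (edgeR adjusted p = 0.201 and 0.0589). In mRNA, NUFIP1 fell at log2 -0.60 (adjusted p = 0.00658) and URB2 did not pass (adjusted p = 0.0532). The 14 exosome genes had 3 higher and 3 lower in mRNA (42.9% called), 1 higher and 2 lower in footprints (21.4%) and 1 lower in the ratio (7.14%). Ribosomal protein genes, many of which have processed pseudogenes, had 31 higher and 18 lower of 79 in mRNA (62%), 21 higher and 24 lower of 71 in footprints (63.4%) and 9 higher and 19 lower of 71 in the ratio (39.4%).

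Of the 47 genes, 41 had a RefSeq promoter (GRCh38.p14), searched over the same 250 bases on both strands. The letters CCGGAAG stood in 12 (29.3%), against 11.8% of 15843 protein-coding promoters and 38.2% of 89 promoters of the wider list. GGGCGG stood in 31 (75.6%, against 56.0% of all and 50.6% of the wider list), and in 15 of 16 small subunit genes against 7 of 12 large subunit genes. CACGTG stood in 5 (12.2%, against 7.84% of all and 14.6% of the wider list) and TATAAA in 3 (7.32%, against 9.23% and 3.37%). These counts describe the letters, and were not set against the changes.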

How the data were processed

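RNA-seq and ribosome profiling were deposited as 8 libraries, 2 for each genotype and assay. The authors deposited raw counts, whole numbers for each Ensembl gene ID. Builds named in the submitters' processing notes are GRCh38 and hg38, and the tools are STAR, featureCounts, Bowtie2, cutadapt and Trimmomatic, with no role or version. Per the labels' protocols, footprints were cut with RNase I, size-selected on a gel and depleted of ribosomal RNA. How strand, counted feature and multiply matching reads were treated is not given in the sources used here. Reads shared with pseudogenes, overlapping genes (11 of the 47 overlap one) or antisense partners can therefore not be told apart.

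IDs were matched to symbols in a reference table (20407 of 20453). edgeR 4.0.16 in R 4.3.3 tested mutant against wild type by quasi-likelihood (glmQLFit with legacy FALSE, glmQLFTest), with filterByExpr as the filter and TMM factors computed per assay. Footprints per mRNA were the interaction of genotype and assay over all 8 libraries. Calls had a Benjamini-Hochberg adjusted p under 0.05 over all genes tested. The normal 95% intervals of fold changes use the standard errors. A floor of 3 counts stood for 0.663 to 0.878 CPM in mRNA and 1.51 to 4.97 CPM in footprints, counting error only, since reads had no molecular identifiers to mark independent molecules. The chi-square test of replicates used genes with at least 20 counts in a pair. Alternatives were RLE factors, library totals only, no filter, legacy TRUE, an assumed coefficient of variation of 10%, removal of a loess trend with gene density, a replicate block, DESeq2 1.42.0 and each library left out; summing the footprint libraries, with the same 10% assumed, was added after the data were seen. The test procedure was tested on simulated data with a spread near the fitted one (common coefficient of variation 1.92% in footprints and 2.25% in mRNA). It does not show how calls hold under wider variation between cultures.

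The members and lists were chosen with earlier results of these data known. Genes given library by library were NIFK, NCL, NPM1, FBL and DKC1, and the member of each role with the smallest p. So were the called members with non-overlapping groups and the 5 largest rises and falls of each comparison. RRN3, with the smallest mRNA p of its role, was given so in footprints and the ratio only. Of the wider list, up to 3 a direction were named. Among these, PIH1D1 and EIF6 have footprint values by library, and the others fold changes alone. The promoters printed, and other genes given by fold change alone, were chosen after their values were seen. Levels in CPM are not compared between genes, since no lengths were used. Footprints per mRNA are ranked among genes, and the part of gene length in those ranks was not tested.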

Additional observations from a re-analysis of the deposited data

Results flagged for a closer look

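NIFK and WDR43 were flagged because mRNA and footprints were called in opposite directions between mutant and wild-type cells. The interaction of genotype and assay passed in both genes, as in 4.15% of all genes. How many of all genes met the whole rule was not counted. For NIFK the log2 fold change of footprints per mRNA was -1.32 (SE 0.16, edgeR adjusted p = 1.15e-09), lower in both mutant libraries than in both wild-type libraries. For WDR43 it was -0.641 (SE 0.13, edgeR adjusted p = 3.17e-04), again lower in both mutant libraries. The mRNA rise was lost in 3 of 12 alternatives for NIFK and in 4 of 12 for WDR43. The WDR43 footprint fall was lost in 6 of 13, and DESeq2 was among the losses each time.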

How the results depend on the processing

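Among the values of the genes named by the rule, under all alternatives, 550 kept direction and side of the threshold, 166 lost the call, 6 gained one and 4 reversed. The reversed log2 fold changes were FBL in mRNA with the density trend removed (0.0165), DKC1 in footprints with the density trend removed (0.0551), and NCL in footprints with library totals only (0.0173) and without mutant footprint replicate 2 (0.0431; the range over libraries left out was -0.171 to 0.0431). WDR75, named by fold change alone, also reversed in mRNA without mutant mRNA replicate 1 (-0.0122). The causes were not tested. With 10% variation assumed, genes called numbered 313 (mRNA), 287 (footprints) and 13 (footprints per mRNA), and members 0 higher and 1 lower in each. DESeq2 called 1305, 366 and 114 genes; members were 4 higher and 4 lower in mRNA, 0 and 3 in footprints, and 0 and 1 in footprints per mRNA. Summed footprint libraries, with 10% variation assumed too, gave 43 genes in footprints and 4 in footprints per mRNA, with 0 members higher and 1 lower in each. With the density trend removed, 5 members were higher and 6 lower in mRNA (27.2% of all genes called). In footprints per mRNA 0 were then higher and 6 lower (3.99%). With no filter 0 were higher and 5 lower in footprints per mRNA (2.56%). Library totals only gave 6 higher and 10 lower in footprints (22.5%). Leaving out one library at a time, genes called ranged from 2282 to 3840 in mRNA (members 7 to 14 higher, 5 to 8 lower), from 296 to 1792 in footprints (0 to 5 higher, 4 to 10 lower) and from 139 to 448 in footprints per mRNA (0 to 0 higher, 2 to 5 lower). Deviations of same-numbered libraries correlated at 0.0195 to 0.0562. Spread between replicates did not exceed counting noise in footprints. In mRNA it was above it, at a chi-square per degree of freedom of 1.33 in mutant and 1.08 in wild-type libraries. Most of the spread was still counting noise, so these values cannot tell whether replicate numbers pair the libraries. The replicate block gave 4166 genes (mRNA), 2075 (footprints) and 494 (footprints per mRNA), with 25, 17 and 7 members called, 21, 16 and 6 of them as without it. A replicate block pairing the assays gave 602 genes in footprints per mRNA. The mutant footprint libraries were the shallowest, with 944824 and 603360 counts, and the lowest member count was 6 (UTP20, mutant footprint replicate 2).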
